A study of Homo sapiens with 16 samples.

Results

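The response to nutlin of cells in which p53 and iASPP had been silenced together was described from 4 of the 16 libraries of an RNA sequencing study of HCT116, a human colon cancer cell line whose p53 is labelled wild type. The 4 libraries were taken by the names of their columns: 2 of p53+iASPP siRNA+nutlin and 2 of p53+iASPP siRNA. Every cell of the comparison thus carried both siRNAs, for 3 days, and the groups differed in the nutlin given to one of them for 0.5 days more. The other groups, used here only for contrast, were CTR siRNA (the control siRNA), p53 siRNA and iASPP siRNA, each without and with nutlin and with 2 libraries per group. The labels do not say that replicates came from separate cultures, so the p-values rest on a spread that may be technical and not that of repeated experiments.

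p53 is a transcription factor that is kept low by MDM2, a ubiquitin ligase that binds it and marks it for degradation. Nutlin-3 is a small molecule that occupies the p53-binding pocket of MDM2, so that p53 accumulates in cells whose p53 gene is intact. p53 then switches on genes such as CDKN1A, which encodes the cell cycle inhibitor p21, and MDM2 itself, and cell cycle genes decline as p21 holds the RB family in its repressing state. iASPP, encoded by PPP1R13L, is the inhibitory member of the ASPP family of p53-binding proteins. The design asks what nutlin does when both the protein it releases and this inhibitor are depleted.

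Matches to the p53 consensus near the start sites of the genes at issue are shown first, to show which of these starts hold one. The sequences are those of RefSeq on GRCh38.p14, from 250 bases before to 50 bases after the annotated start, read in the direction of the gene. The capitals mark the match to the p53 consensus, here 2 adjoining stretches of 10 letters with the C and the G of each stretch's core held fixed, 4 letters in all, and at most 3 of the 20 letters off the consensus, which may fall between that C and G. MDM2 (chr12:68808767-68809066, plus strand, 2 letters off) encodes the target of nutlin, and FDXR (chr17:74872945-74873244, minus strand, 3 letters off), which encodes the mitochondrial enzyme ferredoxin reductase, had the smallest p among the genes that were higher with nutlin in the doubly depleted cells:
MDM2: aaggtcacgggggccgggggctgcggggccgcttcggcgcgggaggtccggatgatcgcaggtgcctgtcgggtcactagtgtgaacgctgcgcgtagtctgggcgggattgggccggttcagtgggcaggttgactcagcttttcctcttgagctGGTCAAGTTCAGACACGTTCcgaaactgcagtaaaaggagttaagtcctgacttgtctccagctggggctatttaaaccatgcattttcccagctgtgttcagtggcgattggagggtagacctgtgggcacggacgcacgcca
FDXR: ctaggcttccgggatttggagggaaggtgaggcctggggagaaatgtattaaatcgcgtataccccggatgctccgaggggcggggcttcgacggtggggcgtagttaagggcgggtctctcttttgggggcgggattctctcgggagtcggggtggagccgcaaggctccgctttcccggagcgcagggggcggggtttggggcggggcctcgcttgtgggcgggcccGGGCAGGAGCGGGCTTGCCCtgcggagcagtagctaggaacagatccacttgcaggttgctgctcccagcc

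Of 4 further genes that are named below, only the 20 matching letters are given. GDF15 (chr19:18385908-18386207, plus strand) encodes a secreted stress cytokine and S100A6 (chr1:153535942-153536241, minus strand) a small calcium-binding protein. DDB2 (chr11:47214724-47215023, plus strand) encodes a DNA damage recognition protein and TP73 (chr1:3690422-3690721, plus strand) the p53 relative p73. The coordinates are those of the whole window of 300 bases:
GDF15: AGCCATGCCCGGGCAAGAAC
S100A6: GGGCTTGGCCGAGCTGGCCT
DDB2: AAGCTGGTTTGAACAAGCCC
TP73: GGGCAAGCTGAGGCCTGCCC

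A match of this kind, looked for on the strand of the gene and its reverse complement, was found in 1.12% of all 35116 windows and in 1.37% of genes with a window. It was found in 21 of the 106 listed p53 targets that had a window, in 0 of 32 DNA replication genes and in 0 of 31 mitotic genes. No window of CDKN1A holds such a match, which says only that these letters are not within the windows searched. A match is a description of the letters and not evidence of binding.

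The deposited values are FPKM, fragments counted per length of transcript and per size of library, and no read counts were used. Between 10068 and 10726 genes reached 1 FPKM in a library, and 10662 of the 20271 genes in the table had a mean of at least 1 FPKM over the 16 libraries and were tested. Depth relative to CTR siRNA replicate 1, read from the steps between low values, was 0.824 to 1.33 in the replicates numbered 1 and 3.68 to 7.73 in those numbered 2, so the replicate number and the depth cannot be told apart. In 5 groups the replicates lay close together, with a median absolute log2 difference of 0.0514 to 0.0668 among genes at 100 FPKM or more. In the 3 depleted groups with nutlin it was 0.178 to 0.259, and it was 0.178 in p53+iASPP siRNA+nutlin against 0.0514 in p53+iASPP siRNA. Replicate 2 of p53+iASPP siRNA+nutlin correlated more closely with replicate 2 of p53 siRNA+nutlin (Pearson r = 0.990 across 10662 genes, which are not independent) than with its own replicate 1 (r = 0.975). Other libraries were closer than its own replicate 1 too. Among them were replicate 2 of CTR siRNA (r = 0.986) and of p53+iASPP siRNA (r = 0.981) and replicate 1 of p53 siRNA+nutlin (r = 0.978). PPP1R13L was at 2.45 FPKM in replicate 2 of p53+iASPP siRNA+nutlin, beside 0.378 FPKM in its replicate 1 and 14.9 FPKM in replicate 2 of p53 siRNA+nutlin. The library was used as labelled, and whether its label holds was not tested. Of 10 colon epithelial markers, 6 were at 1 FPKM or more, among them EPCAM at 218 to 247 FPKM in the 4 libraries, and VIL1, LGALS4, CEACAM5 and MUC13 stayed below 1 FPKM. The 16 markers of other cell types summed to 8.14 and 4.91 FPKM without nutlin and to 9.28 and 9.68 FPKM with it, and 6 of them were listed at 0 in all 4 libraries.

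The mRNA of iASPP was low in the 4 libraries. PPP1R13L was at 1.73 and 1.03 FPKM in the doubly depleted cells without nutlin and at 0.378 and 2.45 FPKM with it, beside 9.95 and 8.69 FPKM in CTR siRNA. The nutlin libraries lay on either side of the untreated pair, with replicate 2 the highest of the 4. The log2 change with nutlin, on the log2(FPKM + 1) scale used throughout, was -0.11 and did not pass the test (adjusted p = 0.962 by limma with Benjamini-Hochberg adjustment).

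Nutlin changed no gene past the threshold in the doubly depleted cells. Of 10662 genes tested 0 reached an adjusted p under 0.05 (0.0%), and the lowest adjusted p was 0.64. An unadjusted p under 0.05 was reached by 753 genes (7.06%), 258 of them above 0 (2.42%) and 495 below 0 (4.64%). The median standard error of a log2 change was 0.196, which gives a 95% interval of 0.431 to either side. Small changes were therefore not detectable with these libraries. That interval is for 1 gene, without adjustment for the number of genes tested, and larger changes did not pass either. CDKN1A, at a log2 change of 1.45, and GDF15, at 1.15, each had an adjusted p of 0.694 by limma. The count of 0 thus does not show that large changes were absent. In CTR siRNA cells the same fit called 2861 genes (26.8%), 626 higher (5.87%) and 2235 lower (21.0%) with nutlin. In p53 siRNA cells it called 24 genes (0.225%) and in iASPP siRNA cells 555 (5.21%).

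The count of 0 rests in part on libraries that stand apart. When the second replicates of the 3 depleted nutlin groups were left out, 54 genes passed (0.506%), 24 higher (0.225%) and 30 lower (0.281%) with nutlin. That fit has 1 nutlin library in the doubly depleted group, assumed to vary like the 5 close pairs. CDKN1A, GDF15, FDXR and BTG2 were among the 24, with 11 ribosomal protein genes, and FOS, DUSP1, EGR1, MYC, E2F8, CDCA4 and TP73 among the 30; BTG2, EGR1, MYC and E2F8 were named after their values were seen.

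**Figure D1:**
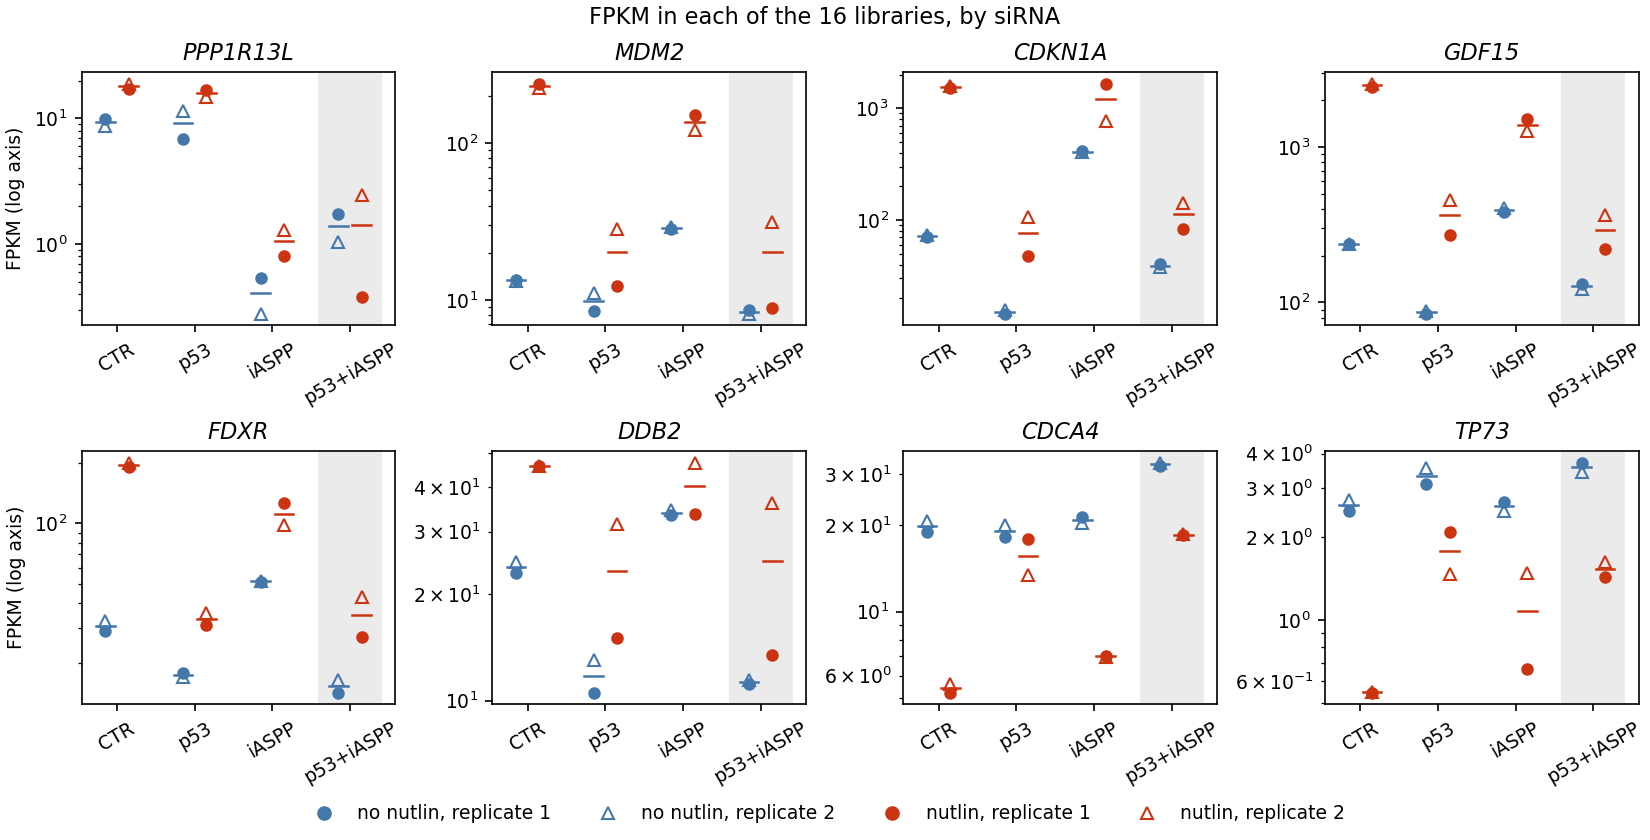
FPKM on a log axis of 8 genes in each of the 16 libraries, by siRNA on the x axis, without nutlin (blue) and with it (red); circles are replicate 1, open triangles replicate 2, short lines group means, and the grey band marks the doubly depleted cells. With nutlin CDKN1A stood at 83.1 and 141 FPKM in the doubly depleted cells and at 1510 and 1577 FPKM in CTR siRNA cells, while CDCA4 was at 18.5 and 18.6 FPKM against 32.1 and 32.9 FPKM without nutlin.

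Of the genes that p53 is known to activate, CDKN1A, GDF15 and FDXR were higher in both nutlin libraries, by far less than in CTR siRNA cells, and none of them passed the test. CDKN1A (6:36676460-36687339 on GRCh38, GENCODE release 29) was at 40.3 and 37.9 FPKM without nutlin and at 83.1 and 141 FPKM with it. The groups did not overlap and replicate 2 was the higher of the nutlin libraries. The log2 change was 1.45 ± 0.38 (SE, n = 2 per group), with an unadjusted p of 0.00291 and an adjusted p of 0.694 by limma. GDF15 was at 131 and 123 FPKM without nutlin and at 220 and 363 FPKM with it. Again both nutlin libraries were above both untreated ones, with a log2 change of 1.15 ± 0.23 and an adjusted p of 0.694. FDXR went from 14.2 and 16.4 FPKM to 26.9 and 43.01 FPKM. Its log2 change was 1.11 ± 0.19, with an unadjusted p of 0.00013 and an adjusted p of 0.64.

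MDM2 did not follow these genes in both replicates. It was at 8.61 and 8.18 FPKM without nutlin and at 8.95 and 31.5 FPKM with it, so only replicate 2 stood away from the untreated pair. The fold over the untreated mean was 1.07 in replicate 1 and 3.76 in replicate 2, where the same folds of CDKN1A were 2.12 and 3.61. DDB2 showed the same split, with 11.1 and 11.5 FPKM without nutlin and 13.4 and 36.0 FPKM with it. So did RRM2B, which encodes a subunit of ribonucleotide reductase, at 8.83 and 7.98 FPKM and then 7.62 and 23.7 FPKM, and SESN1, which encodes sestrin 1, at 1.91 and 1.85 FPKM and then 2.39 and 5.39 FPKM; this pair was chosen after the values were seen. BTG2, an antiproliferative p53 target also chosen in this way, was by contrast alike in the nutlin replicates, at 14.3 and 15.8 FPKM after 6.72 and 8.39 FPKM without nutlin. Replicate 2 was also the higher for these genes in p53 siRNA cells with nutlin. There MDM2 was at 12.3 and 28.2 FPKM, DDB2 at 15.04 and 31.5 FPKM and RRM2B at 8.61 and 22.4 FPKM. SESN1 was at 1.425 and 4.33 FPKM there and BTG2 at 6.16 and 12.4 FPKM. In iASPP siRNA cells with nutlin, replicate 2 was the lower for MDM2, RRM2B, SESN1 and BTG2 and the higher for DDB2.

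Of 130 listed p53 activated targets 129 were in the table and 108 were tested, a set that was chosen with results of these data known and that the filter could favour where a gene was high in CTR siRNA with nutlin. None of the 108 was called, beside 0.0% of all genes. Their median log2 change was 0.20, beside -0.04 over all genes tested, and 84 of 108 were above 0, beside 42.9% of all genes. An unadjusted p under 0.05 with a change above 0 was reached by 19, beside 2.42% of all genes. Both nutlin replicates are set against the same untreated pair. The median was 0.08 in replicate 1 and 0.41 in replicate 2, beside -0.10 and 0.02 over all genes. In replicate 2, 88 of 108 members were higher than in replicate 1, beside 6770 of all 10662 genes. At least a doubling was reached by 1 member in replicate 1 and by 16 in replicate 2, beside 96 and 146 of all genes. Growth arrest genes had a median of 0.49 over 15 members and apoptosis genes of 0.14 over 22.

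Other members of the p53 network had smaller values. CCNG1, which encodes cyclin G1, was at 42.9 and 48.7 FPKM without nutlin and at 62.3 and 110 FPKM with it (log2 change 0.84). PPM1D, which encodes the phosphatase WIP1, was at 3.75 and 4.03 FPKM and then at 6.25 and 6.91 FPKM (0.63). TRIAP1, an apoptosis inhibitor, stood at 48.1 and 51.9 FPKM and then at 67.9 and 65.0 FPKM (0.40), and BBC3, which encodes the BH3-only protein PUMA, at 5.10 and 4.44 FPKM and then at 6.25 and 10.8 FPKM (0.68). In all 4 genes both nutlin libraries were above both untreated ones, beside 15.2% of all genes. None of the 4 passed the test (adjusted p = 0.694 in each by limma). They come from genes picked for a small p within their lists. Picked in the same way, CASP6 was higher with nutlin (0.54), and CREBBP and TNFRSF1A were lower. CREBBP was at 4.49 and 4.57 FPKM and then at 2.75 and 3.11 FPKM (-0.49). TNFRSF1A was at 55.1 and 43.9 FPKM and then at 36.8 and 34.0 FPKM (-0.47). Of the 20 p53 family members and regulators tested, 13 were below 0, beside 57.0% of all genes, so this count is near that of all genes.

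**Figure D2:**
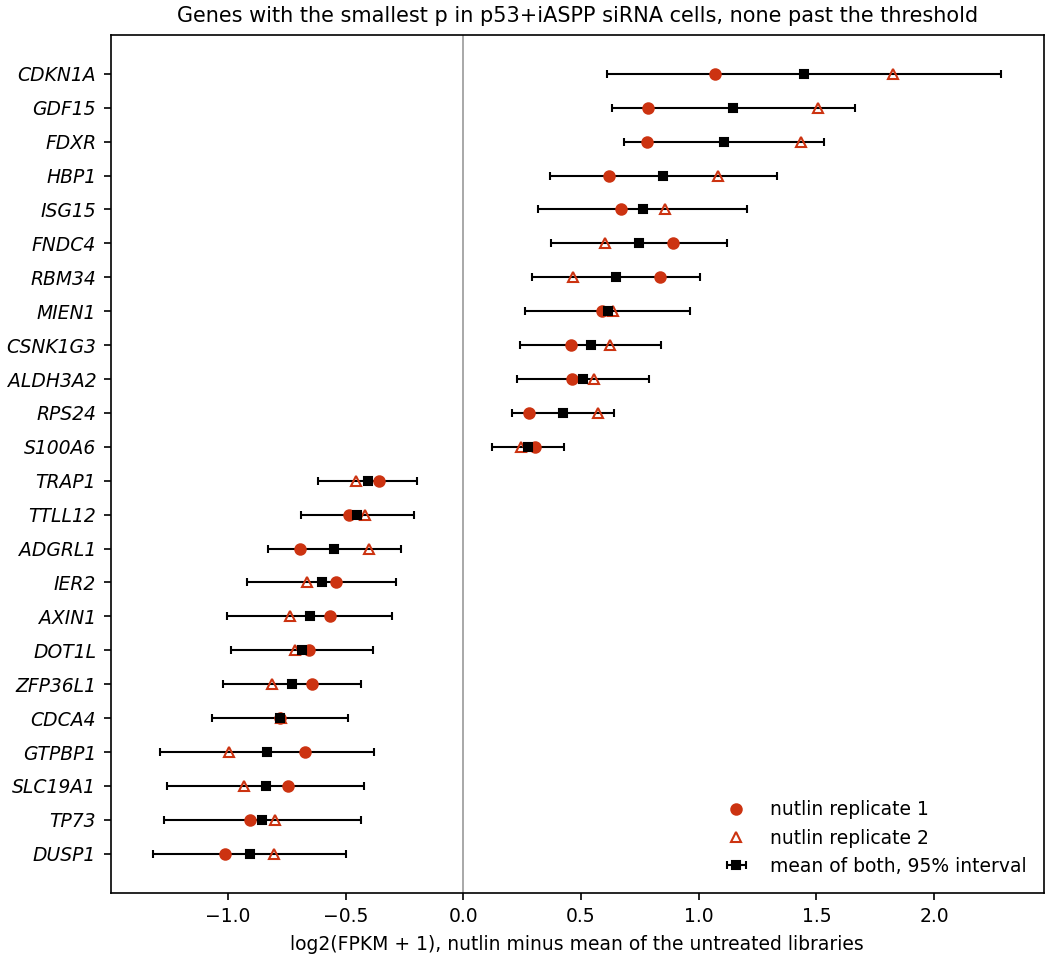
Difference in log2(FPKM + 1) between nutlin and the mean of the untreated libraries in p53+iASPP siRNA cells (x axis) for the 24 genes with non-overlapping groups and the smallest p, 12 in each direction; red circles are nutlin replicate 1, open red triangles replicate 2, and black squares their mean with its 95% interval from limma. None passed the threshold; CDKN1A, at 1.45, has the widest gap between its replicates of the 12 above 0, and for CDCA4, at -0.78, the replicates coincide.

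The other named genes above 0 were FNDC4, RPS24, ALDH3A2, RBM34, CSNK1G3, S100A6, HBP1, MIEN1 and ISG15, with log2 changes of 0.28 to 0.85, and they were picked for their small p. HBP1, which encodes a transcriptional repressor of the HMG-box family, was at 6.73 and 7.48 FPKM without nutlin and at 11.4 and 16.1 FPKM with it. ISG15, a ubiquitin-like interferon response protein, stood at 113 and 102 FPKM and then at 171 and 195 FPKM. S100A6 was among the most abundant mRNAs, at 4113 and 4401 FPKM and then at 5257 and 5046 FPKM. The groups of these 3 genes did not overlap, which the rule that named them required. Both nutlin libraries were above both untreated ones in 15.2% of all genes. Of the 12 genes 3 held the p53 consensus match in a window (FDXR, GDF15 and S100A6), a count that describes genes picked on their values.

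The named genes below 0 were more alike in the nutlin replicates. CDCA4, a nuclear protein linked to cell division, was at 32.1 and 32.9 FPKM without nutlin and at 18.5 and 18.6 FPKM with it. Its log2 change of -0.78 ± 0.13 had the smallest p of all genes, 9.61e-05 unadjusted, and an adjusted p of 0.64 by limma. ZFP36L1, which encodes a protein that promotes mRNA decay, was at 63.5 and 63.6 FPKM and then at 40.3 and 35.7 FPKM, a log2 change of -0.73. TP73 was at 3.71 and 3.42 FPKM and then at 1.44 and 1.62 FPKM, a log2 change of -0.85. Its consensus match shown above is in the window picked for the closest match. That window lies inside the gene (1:3652520-3736201) and not at its outermost start. TP73 was the only gene with such a match among the 10 of these 12 genes that had a window. The other genes were DOT1L (a histone methyltransferase), DUSP1 (a MAP kinase phosphatase), SLC19A1 (a folate carrier), TRAP1 (a mitochondrial chaperone), ADGRL1, IER2, TTLL12, AXIN1 (a scaffold of the beta-catenin destruction complex) and GTPBP1, with log2 changes of -0.41 to -0.91.

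Genes of DNA replication and of mitosis were lower in nearly every case, by small amounts. All 35 tested genes of DNA replication and the G1/S transition were below 0, beside 57.0% of all genes, with a median of -0.39, and in 29 of them both nutlin libraries were below both untreated ones, beside 26.2% of all genes. Of 37 genes of G2/M and mitosis 35 were below 0, with a median of -0.25, and 27 had non-overlapping groups. No member of either list was called. In bulk RNA fewer cycling cells and less mRNA per cell cannot be told apart. MCM5, a subunit of the replicative helicase, was at 69.4 and 60.6 FPKM without nutlin and at 39.6 and 34.7 FPKM with it (log2 change -0.79, adjusted p = 0.694 by limma). UHRF1, which couples DNA methylation to replication, was at 26.8 and 28.7 FPKM and then at 15.5 and 14.1 FPKM. AURKB, which encodes a mitotic kinase, was at 119 and 131 FPKM and then at 91.1 and 90.8 FPKM (-0.45), and MKI67, the proliferation marker Ki-67, at 7.56 and 7.77 FPKM and then at 4.89 and 5.36 FPKM (-0.50). The medians of both lists were below 0 in each nutlin replicate, at -0.31 and -0.45 for replication and at -0.19 and -0.33 for mitosis.

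Replication-dependent histone genes separated the nutlin replicates most. Over 22 tested members the median was -0.26 in replicate 1 and -1.48 in replicate 2, beside -0.10 and 0.02 over all genes. Lower by at least 2-fold were 19 members in replicate 2 and 1 in replicate 1, beside 82 and 149 of all 10662 genes. HIST1H2AJ was at 530 and 458 FPKM without nutlin and at 465 and 146 FPKM with it. HIST1H1E, a linker histone gene, stood at 304 and 287 FPKM and then at 204 and 101 FPKM, and HIST1H4H at 16.5 and 16.3 FPKM and then at 3.89 and 5.21 FPKM. HIST1H4H was low in both nutlin libraries and the other genes mainly in replicate 2. The nutlin replicates of p53 siRNA cells also differed, with HIST1H2AJ at 312 and 64.4 FPKM and HIST1H1E at 180 and 60.3 FPKM. HIST1H4H was at 25.1 and 3.04 FPKM there. These genes are near-identical copies, so reads may have been split between them, and most of their mRNAs lack a poly(A) tail.

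**Figure D3:**
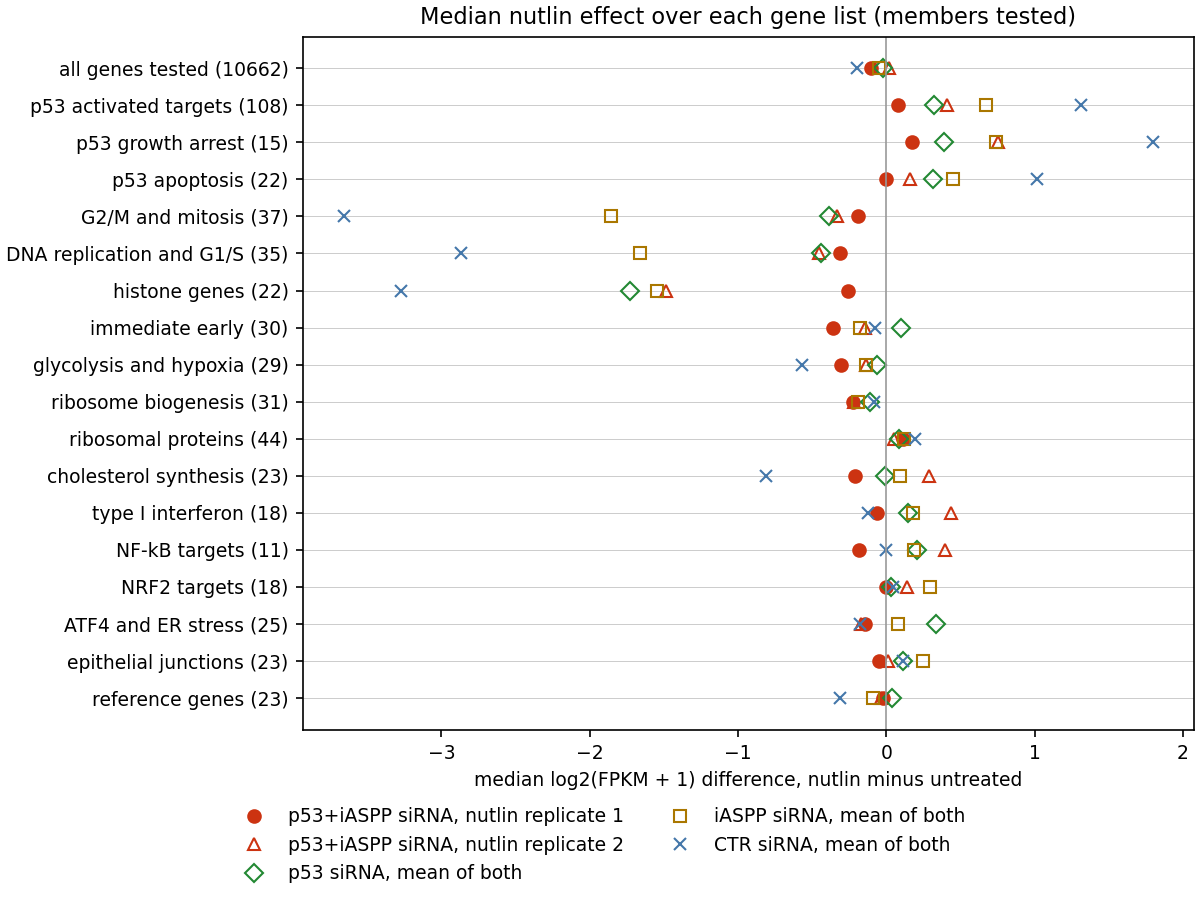
Median difference in log2(FPKM + 1), nutlin minus untreated (x axis), over the tested members of 17 gene lists and over all genes tested, with the number of members in parentheses; filled red circles and open red triangles are nutlin replicates 1 and 2 of the doubly depleted cells, and the other symbols are group means in the other siRNA backgrounds. In the doubly depleted cells the histone list lies at -0.26 and -1.48, whereas in CTR siRNA cells mitotic genes lie at -3.66 and p53 activated targets at 1.31.

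Immediate early genes were lower as well. Of 30 tested, 23 were below 0, beside 57.0% of all genes, with a median of -0.26. An unadjusted p under 0.05 with a change below 0 was reached by 10, beside 4.64% of all genes. FOS, a subunit of the AP-1 transcription factor, was at 105 and 114 FPKM without nutlin and at 46.4 and 30.9 FPKM with it, a log2 change of -1.50 ± 0.43 with an adjusted p of 0.694 by limma. DUSP1 was at 14.7 and 15.1 FPKM and then at 6.88 and 8.11 FPKM. EGR1, another early transcription factor, was at 35.0 and 36.4 FPKM and then at 21.1 and 14.2 FPKM. For MYC the nutlin replicates differed, at 111 and 173 FPKM after 188 and 192 FPKM. ATF3, a stress-induced member of the same list, was higher, at 8.59 and 11.5 FPKM and then at 14.1 and 22.4 FPKM.

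Genes of ribosome biogenesis and of ribosomal proteins lay on opposite sides of 0. Of 31 genes of ribosome biogenesis 26 were below 0, with a median of -0.25, beside 57.0% of all genes, and in 19 both nutlin libraries were below both untreated ones, beside 26.2% of all genes. FBL, the nucleolar methyltransferase fibrillarin, was at 674 and 666 FPKM without nutlin and at 563 and 522 FPKM with it, and WDR43, a factor of small-subunit assembly, at 48.3 and 50.2 FPKM and then at 35.6 and 37.8 FPKM. Of 44 genes for cytoplasmic ribosomal proteins 33 were above 0, beside 42.9% of all genes, with a median of 0.08. In 23 both nutlin libraries were above both untreated ones, beside 15.2% of all genes. In replicate 1, 42 members were above 0 (median 0.11), beside 3713 of all 10662 genes. In replicate 2 it was 28 members (median 0.05), beside 5587 of all genes, so the count above 0 rests mainly on replicate 1. RPL10A was at 1814 and 1880 FPKM and then at 2060 and 2531 FPKM, a log2 change of 0.31. Ribosomal protein genes have many processed pseudogenes, and reads shared with those may be counted to either.

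Of 29 glycolysis and hypoxia genes none was called. Their median was -0.20, with 23 below 0 (57.0% of all genes) and 8 at an unadjusted p under 0.05 below 0 (4.64% of all genes). In replicate 1 the median was -0.30 with 4 members above 0, and in replicate 2 it was -0.14 with 14 above 0. Among all 10662 genes tested 3713 were above 0 in replicate 1 and 5587 in replicate 2. GPI, the glycolytic enzyme phosphoglucose isomerase, was at 253 and 261 FPKM without nutlin and at 208 and 205 FPKM with it. VEGFA, the angiogenic growth factor, was at 23.6 and 24.5 FPKM and then at 13.01 and 14.5 FPKM. Reference genes had a median of -0.02 over 23 members (0.02 with median-of-ratios scaling), but ACTB was at 2142 and 2127 FPKM and then at 1646 and 1528 FPKM.

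For cholesterol synthesis the nutlin replicates lay on either side of the untreated cells. Of 23 genes 1 was above 0 in replicate 1, where the median was -0.21, and 19 were above 0 in replicate 2, where it was 0.29. Among all 10662 genes tested 3713 were above 0 in replicate 1 and 5587 in replicate 2, with medians of -0.10 and 0.02. HMGCS1, an early enzyme of the pathway, was at 32.3 and 29.2 FPKM without nutlin and at 22.9 and 52.96 FPKM with it, and INSIG1, which retains the sterol sensor SCAP in the endoplasmic reticulum, at 31.0 and 27.6 FPKM and then at 24.7 and 50.2 FPKM; both were chosen after their values were seen. NF-kB targets (median -0.19 and 0.39 over 11 genes) and type I interferon genes (-0.07 and 0.44 over 18) split in the same direction. The medians of all genes did so too, by less. NRF2 targets had medians of 0.00 and 0.14 over 18 genes, genes of the ATF4 and endoplasmic reticulum stress response of -0.14 and -0.17 over 25, heat shock genes of 0.02 and -0.06 over 16, lysosome and autophagy genes of 0.02 and 0.17 over 31 and epithelial junction genes of -0.05 and 0.01 over 23. No member of these lists was called.

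Across all genes the replicates of the nutlin effect shared little. Setting nutlin replicate 1 against untreated replicate 1 and nutlin replicate 2 against untreated replicate 2, so that no library is used in both, gave r = 0.059 across 10662 genes, and exchanging the untreated libraries gave r = 0.0771. The same figures were 0.789 and 0.736 in CTR siRNA cells, 0.199 and 0.217 in p53 siRNA cells and 0.409 and 0.374 in iASPP siRNA cells. These are descriptions across genes that share their libraries. At least a 2-fold difference from the untreated mean was shown by 245 genes (2.30%) in replicate 1 and by 228 (2.14%) in replicate 2.

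The nutlin effect differed from that in CTR siRNA cells for 994 genes (9.32%; 2157, or 20.2%, with the 3 diverging libraries left out), by the difference of the differences in the same fit. It was above that of CTR siRNA cells for 763 (7.16%) and below it for 231 (2.17%). In CTR siRNA cells, which serve as the reference, nutlin took CDKN1A from 70.7 and 72.7 FPKM to 1510 and 1577 FPKM, a 21.5-fold rise of the mean, beside 2.87-fold in the doubly depleted cells. The difference of the log2 changes was -2.96 ± 0.54 (adjusted p = 0.00738 by limma). MDM2 rose from 13.4 and 13.3 FPKM to 239 and 225 FPKM there, and the difference was -3.08 ± 0.64 (adjusted p = 0.0133). For GDF15 the difference was -2.25 ± 0.33 (adjusted p = 0.00255) and for FDXR -1.53 ± 0.27 (adjusted p = 0.00677). Of the 108 p53 targets tested 41 had a nutlin effect below that of CTR siRNA cells, beside 2.17% of all genes, and 0 one above it.

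Cell cycle genes, which fell in CTR siRNA cells, made up a part of the 763. The nutlin effect was above that of CTR siRNA cells for 35 of 37 mitotic genes and 31 of 35 replication genes, beside 7.16% of all genes, and below it for none of either list. AURKB went from 116 and 103 FPKM to 3.81 and 1.96 FPKM in CTR siRNA cells, and the difference of the log2 changes was 4.41 (adjusted p = 0.000336 by limma). For MCM5 the difference was 2.08 (adjusted p = 0.00921). CDCA4 fell in CTR siRNA cells too, from 19.0 and 20.6 FPKM to 5.23 and 5.63 FPKM, and the difference was 0.92 (adjusted p = 0.0122). TP73 did not pass, with a difference of 0.36 and a 95% interval of -0.23 to 0.95.

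Among the genes past the threshold, the largest differences above 0 were those of 6 histone genes, HIST1H2BO, HIST1H4A, HIST1H2AD, HIST1H2AH, HIST1H2AJ and HIST1H2BM, at 5.65 to 6.52. HIST1H2BO was listed at 0 and 4.82 FPKM in CTR siRNA with nutlin after 330 and 458 FPKM, and was at 372 and 186 FPKM in the doubly depleted cells with nutlin. Below 0 the largest that passed were LCE1F, TP53I3, CD82, LCE1C, LCN15 and KRTAP2-3, at -3.09 to -5.72. TP53I3, a p53-induced quinone oxidoreductase, reached 244 and 286 FPKM in CTR siRNA with nutlin and 9.45 and 9.66 FPKM in the doubly depleted cells. CD82, a tetraspanin, reached 81.0 and 69.7 FPKM there and 5.70 and 8.02 FPKM here. LCE1F, a late cornified envelope gene, was listed at 0 in all 4 doubly depleted libraries. LCE1F, LCE1C and LCN15 passed the filter on low values only through nutlin-treated CTR siRNA and iASPP siRNA libraries, so their direction was fixed by the filter and supports nothing.

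**Figure D4:**
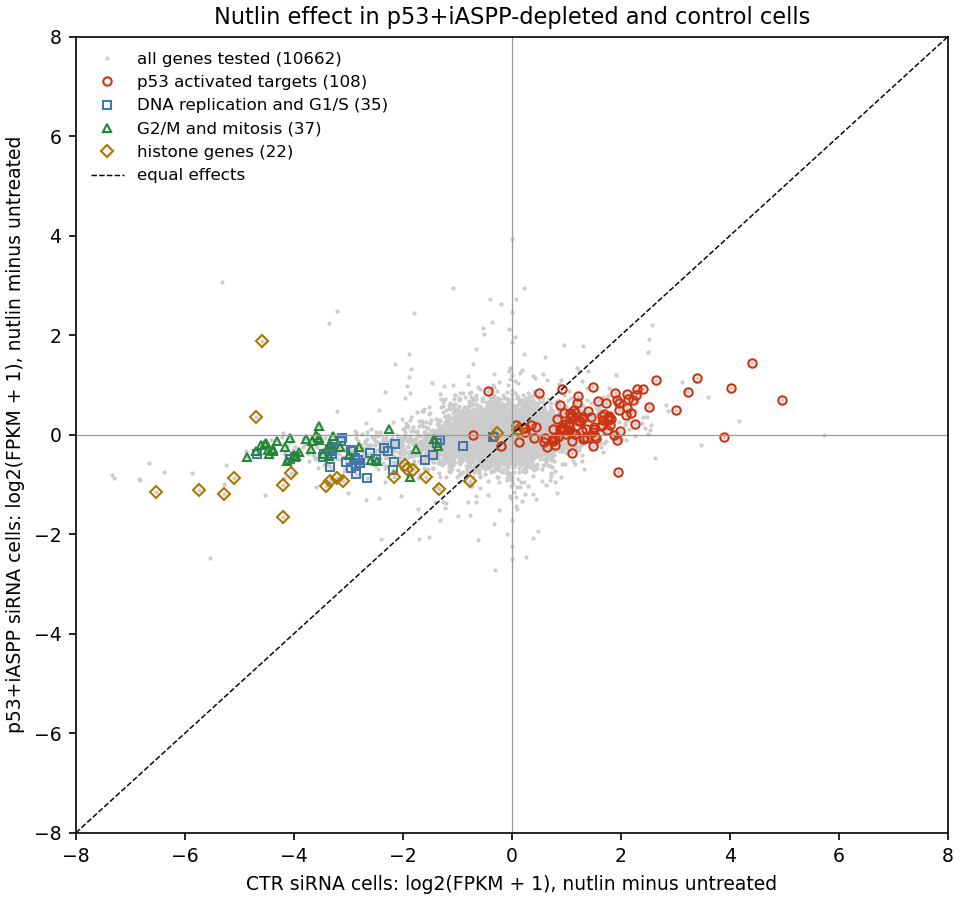
Nutlin effect, as the difference in log2(FPKM + 1) between nutlin and untreated group means, in CTR siRNA cells (x axis) and in p53+iASPP siRNA cells (y axis) for 10662 genes, with 4 gene lists coloured and the line of equal effects dashed. Mitotic, replication and p53 target genes lie much closer to 0 on the y axis than on the x axis; the medians are -0.25 against -3.66 for mitosis and 0.20 against 1.31 for p53 targets.

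These counts depend on how the replicates are read. With the replicates of each of the 5 close pairs averaged into 1 sample, 1 gene had an adjusted p under 0.05 by limma. This was HIST1H3D, named after its value was seen, which was not among the 994 (adjusted p = 0.141 there), so 0 of the 994 were called in this fit. Leaving out 1 library at a time gave 418 to 774 genes, lowest without p53+iASPP siRNA replicate 1. Median-of-ratios scaling moved the median difference of all genes by -0.16, from 0.17 to 0.00, and the split from 763 above and 231 below (76.8% above) to 547 and 363 (60.1% above). The genes that nutlin raised in CTR siRNA cells, 626 in number, had a median log2 change of 0.83 there and of 0.06 in the doubly depleted cells, and the 2235 that it lowered had medians of -0.82 and -0.12.

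Against p53 siRNA alone, the nutlin effect in the doubly depleted cells differed for 1 gene of 10662 (0.00938%), and an unadjusted p under 0.05 was reached by 633 (5.94%). The gene was RPL17-C18orf32, a readthrough transcript whose reads overlap those of RPL17 and C18orf32 and whose level is therefore uncertain. It went from 6.72 and 7.92 FPKM to 3.23 and 4.94 FPKM with nutlin in the doubly depleted cells and from 3.37 and 3.53 FPKM to 12.5 and 11.4 FPKM in p53 siRNA cells. The difference of the log2 changes was -2.27 ± 0.27 (adjusted p = 0.0445 by limma). The call was lost with the replicate block, where the lowest adjusted p of the comparison was 0.114 by limma, and without the filter (0.201), with library weights (0.192), with the groups compared only (0.501) and with close pairs averaged (0.143). For CDKN1A, at 14.5 and 15.6 FPKM and then 47.4 and 107 FPKM in p53 siRNA cells, the difference was -0.72 with a 95% interval of -1.91 to 0.46. For MDM2 it was 0.06 with an interval of -1.35 to 1.47, and for FDXR 0.22 with an interval of -0.39 to 0.82. For GDF15 it was -0.87 with an interval of -1.60 to -0.13 and an adjusted p of 0.762. The intervals are wide enough to hold differences of more than 2-fold for CDKN1A and MDM2, so the data do not show that the responses were alike.

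Against iASPP siRNA alone 0 genes passed (0.0%), with 779 (7.31%) at an unadjusted p under 0.05 and a lowest adjusted p of 0.377. Without replicate 2 of iASPP siRNA+nutlin 658 genes passed. In iASPP siRNA cells MDM2 went from 28.2 and 29.4 FPKM to 150 and 121 FPKM with nutlin, and the difference of the log2 changes was -1.25 with a 95% interval of -2.66 to 0.16. CDKN1A went from 411 and 406 FPKM to 1656 and 776 FPKM there, a mean 2.97-fold higher, beside 2.87-fold in the doubly depleted cells. The difference for CDKN1A was -0.02 with an interval of -1.21 to 1.16. Without the 3 diverging libraries it was -0.95 (adjusted p = 0.00144 by limma), and that for MDM2 was -2.26 (adjusted p = 0.000693). The median difference was 1.63 over the mitotic genes and 1.09 over the replication genes, beside 0.02 over all genes, and no member of either list passed the test. Without the 3 diverging libraries 34 of 37 mitotic and 26 of 35 replication genes passed above 0, among 1343 genes in all (12.6%).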

How the data were processed

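Messenger RNA of HCT116 cells was purified on beads, reverse transcribed and sequenced on Illumina libraries, per the labels' protocols. The values are FPKM as deposited by the authors. The submitters' processing notes name edgeR, with no version, and hg38 (GRCh38); the aligner, and the gene models used, were not given in the sources used here. Columns were matched to samples by title. Of the symbols of the 20271 genes, 28 had been read as dates and 210 were blank, and these were taken from GENCODE release 29. FPKM hold no counts, so no counting interval is given, and relative depth was read from the most frequent ratio of low values in log2 windows of 0.01.

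Group means of all 8 groups were fitted to log2(FPKM + 1) with limma 3.58.1 in R 4.3.3 (empirical Bayes with intensity trend, 8 residual and 3.15 prior degrees of freedom) over the 10662 genes whose mean reached 1 FPKM. The pseudocount of 1 understates the change of low genes. The threshold was an adjusted p under 0.05 (Benjamini-Hochberg over all genes tested). The smallest exact p of 2 against 2 libraries is 0.333, so exact tests were not used. No library was dropped from or imputed in this fit. Figures were drawn with matplotlib 3.10.9.

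PPP1R13L, MDM2, CDKN1A and GDF15 were named always, then the 12 genes in each direction with the smallest p and no overlap (none passed the threshold), the 4 members of each gene list with the smallest p, and the 6 largest differences past the threshold in each direction between siRNA backgrounds, without clone names. Examples from these are printed, and genes outside the rule are said to be so: BTG2, MYC, EGR1, E2F8, RRM2B, SESN1, HMGCS1, INSIG1 and HIST1H3D. The comparison, its members and the 25 lists were chosen with earlier results of these data known. Mitochondrially encoded genes were not analysed here, and 1 always-named gene is left out of the text. Replicate numbers were not taken to pair libraries.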

Additional observations from a re-analysis of the deposited data

Results flagged for a closer look

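Flagged here are 15 genes whose nutlin effect in p53+iASPP siRNA cells differed from that in CTR siRNA cells. They are always named or, clone names left out, have one of the 6 largest differences in either direction. Other named genes passed too, among them FDXR, AURKB, MCM5 and CDCA4. The test was limma's of the difference of the log2 changes, with 2 libraries in each of the 4 groups. Among the 15 the difference was below 0 for MDM2 (-3.08), CDKN1A (-2.96), GDF15 (-2.25), LCE1F (-5.72), TP53I3 (-4.25), CD82 (-3.93), LCE1C (-3.90), LCN15 (-3.67) and KRTAP2-3 (-3.09). It was above 0 for the histone genes HIST1H2BO (6.52), HIST1H4A (6.43), HIST1H2AD (6.10), HIST1H2AH (5.95), HIST1H2AJ (5.90) and HIST1H2BM (5.65). LCE1F was listed at 0 in both untreated CTR siRNA libraries and in all 4 doubly depleted libraries, and the 6 histone genes were each listed at 0 in 1 library of CTR siRNA with nutlin, so the sizes of these differences depend on the pseudocount. The same holds for LCN15, listed at 0 in both untreated CTR siRNA libraries, and LCE1C, at 0 and 0.624 FPKM there. LCE1F, LCE1C and LCN15 passed the filter on low values only through nutlin-treated CTR siRNA and iASPP siRNA libraries, so their direction was fixed. Against p53 siRNA cells a difference was found for RPL17-C18orf32 (-2.27), a readthrough transcript, and 0 genes passed there with the replicate block, without the filter, with library weights, with the groups compared only or with close pairs averaged.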

How the results depend on the processing

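The nutlin effect in the doubly depleted cells kept 0 calls under a pseudocount of 0.1, without the filter, with median-of-ratios scaling, library weights or the replicate block, with the libraries of the groups compared only and with close pairs averaged. It gave 54 calls without the 3 diverging libraries and 0 to 3 when 1 library was left out: 3 without p53+iASPP siRNA replicate 1 and 1 without its replicate 2. The difference from CTR siRNA cells (994) gave 1846 with library weights, 1493 with the groups compared only, 2157 when the 3 diverging libraries were dropped and 1 with close pairs averaged. Leaving out 1 library gave 418 to 774: 421 and 536 without CTR siRNA replicates 1 and 2, 418 and 510 without those of p53+iASPP siRNA, and 460 and 539 without those of CTR siRNA+nutlin. The difference from p53 siRNA cells (1) gave 2 with a pseudocount of 0.1, 116 without the 3 diverging libraries, 0 without the filter, with the replicate block, with library weights, with the groups compared only and with close pairs averaged, and 0 to 4 when 1 library was left out. The difference from iASPP siRNA cells (0) gave 1 with a pseudocount of 0.1, with the groups compared only and with close pairs averaged, 1343 when the 3 diverging libraries were dropped and 0 to 658 when 1 library was left out, the highest without iASPP siRNA+nutlin replicate 2. The cause of these shifts was not tested. Where a group kept 1 library, that library is assumed to vary like the other groups.

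With 1 library left out the log2 change of PPP1R13L with nutlin was -0.77 to 0.55. It reversed from -0.11 to 0.10 without p53+iASPP siRNA replicate 1 and to 0.55 without p53+iASPP siRNA+nutlin replicate 1. Of the other genes followed none changed sign under these alternatives, in the first comparison or in the difference from CTR siRNA cells. RRM2B, HMGCS1 and INSIG1 were not among the genes followed. In nutlin replicate 1 alone they were at 0.907, 0.742 and 0.845 of the untreated mean, beside 1.86, 1.23 and 1.28 with both replicates. The direction of their change thus depends on replicate 2. With close pairs averaged, all 33 genes followed in that difference lost their call.

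Replicate numbers are shared between the groups. The deviations of same-numbered libraries of the doubly depleted groups had a correlation of -0.02 over genes. Over the 28 pairs of groups it ran from -0.03 to 0.30, and it was 0.30 between p53 siRNA+nutlin and p53+iASPP siRNA+nutlin, 0.17 between iASPP siRNA+nutlin and p53+iASPP siRNA+nutlin and 0.11 between CTR siRNA and CTR siRNA+nutlin. A replicate block gave 0 calls in the first comparison, 964 in the difference from CTR siRNA cells, 0 in that from p53 siRNA cells and 0 in that from iASPP siRNA cells.

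With 2 libraries per group the median standard error was 0.196 for the first comparison and 0.278 for the differences between siRNA backgrounds, on the log2 scale. Depth follows the replicate number, so its part in the spread between replicates cannot be told apart.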
